A study of Mus musculus with 14 samples.

Results

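The genes described are 35 genes of glycolysis and of the response to low oxygen, out of the 23284 genes counted in each library. They were taken from a fixed list of symbols, enolases left out, and all 35 were present and passed the filter on low counts. Polyadenylated RNA was sequenced from 14 primary tumours of mouse small cell lung cancer, a neuroendocrine lung carcinoma, with 1 library each. In 7 libraries the genotype label is Rb1/Trp53/Crebbp, called RPC here, and in the other 7 it is Rb1/Trp53, called RP here. The tumour suppressor genes Rb1 and Trp53 are therefore deleted in all 14, and Crebbp, a histone acetyltransferase and transcriptional coactivator, in RPC tumours as well. The sources used here do not give strain, age, Cre driver or whether each tumour came from its own mouse. The p-values therefore rest on the spread among these tumours, taken as 7 independent samples per genotype. Tumours that shared a mouse would not be independent, and the p-values could then be too small. The number of animals may be below 7 per genotype, and the spread may be partly technical.

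When oxygen is plentiful, prolyl hydroxylases of the Egln family mark the alpha subunit Hif1a for destruction through the ubiquitin ligase subunit Vhl. When oxygen is low, Hif1a lasts, pairs with Arnt, binds short DNA elements with the core ACGTG or GCGTG, and recruits Crebbp and its paralog Ep300 as coactivators. Its known targets include glucose transporters, most enzymes of glycolysis, the angiogenic factor Vegfa, and some Egln genes themselves, which closes a feedback loop.

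Libraries held between 10060969 and 24052799 counts in genes for RPC and between 10965714 and 23678648 for RP. Crebbp itself ranged from 57.9 to 70.0 CPM (counts scaled to library size) in RPC and from 59.4 to 97.2 CPM in RP, with overlapping ranges. The deleted exons are not named in the sources used here, so a count over the whole gene does not check the labels. All 9 neuroendocrine markers were detected in every library, at summed levels of 2636 to 5169 CPM in RPC and 5272 to 10503 CPM in RP, which did not overlap. RPC tumours 3, 5 and 6 stood apart. Their summed markers were below every RP library for all 7 non-tumour lists. For the 8 macrophage and monocyte markers the sums were 3.22 to 6.57 CPM in these 3, 381 to 1944 CPM in the other 4 RPC tumours and 490.0 to 1380.1 CPM in RP. For the 6 fibroblast markers they were 3.46 to 126 CPM in these 3, 256 to 603 CPM in the other RPC tumours and 213 to 820.4 CPM in RP. For the 7 endothelial markers they were 6.08 to 87.5, 55.4 to 341 and 104 to 291 CPM in the same order of groups. The 4 T and NK cell markers in the files summed to at most 0.109 CPM in these 3, at least 2.02 CPM in the other RPC tumours and at least 1.16 CPM in RP. The 3 red cell markers summed to at most 0.733 CPM in these 3, at least 5.74 CPM in the other RPC tumours and at least 1.99 CPM in RP. The lung epithelial lists set them less apart from the other RPC tumours. The 5 alveolar type 2 markers summed to 51.8 to 141 CPM in these 3, 110.5 to 2702 CPM in the other RPC tumours and 161 to 1543 CPM in RP, and the 3 club cell markers to at most 21.1 CPM in these 3, at least 21.2 CPM in the other RPC tumours and at least 22.2 CPM in RP. The endothelial markers Cdh5, Tie1, Cldn5 and Emcn, the macrophage marker Emr1, the T and NK cell markers Cd3e and Nkg7, the alveolar marker Lamp3 and the globin gene Hbb-b1 had 0 counts in all 3. The globin gene Hba-a1 had 0 counts in all 14 libraries. Some markers went the other way within the summed lists. In RPC tumour 5, the fibroblast markers Pdgfra and Lum were at 117 and 8.03 CPM, against at most 39.1 and 6.22 CPM in RP. The endothelial marker Kdr was at 82.9 CPM there, against at most 29.4 CPM in RP. The alveolar marker Abca3 had 75.9, 121.5 and 42.6 CPM in RPC tumours 3, 5 and 6, against 89.4 to 155.9 CPM in RP. In bulk tumour RNA, fewer cells of a type and less RNA per cell cannot be told apart.

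The comparison of genotypes asked which of these genes differ with Crebbp deletion. Egln3, a HIF prolyl hydroxylase, and Ankrd37, an ankyrin-repeat protein induced by hypoxia, were called lower in RPC tumours, and no member was called higher. The Ankrd37 call was close to the threshold and held in only 4 of the 14 fits that left out 1 library. Of the 35 members, 2 were lower and 0 higher at a Benjamini-Hochberg adjusted p under 0.05 in edgeR's quasi-likelihood test of RPC against RP, adjusted over all 14804 genes tested. Over all genes, 2.21% were called by that rule, 1.12% lower and 1.09% higher. At an unadjusted p under 0.05, 6 members were lower and 0 higher, where 21.3% of all genes passed, 11.1% lower and 10.3% higher. Negative fold changes were found for 28 of the 35 members, with a median log2 fold change of -0.32, where 49.8% of all tested genes were negative and their median was 0.0021. Many members share a regulator, so these counts are not over independent genes.

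**Figure D1:**
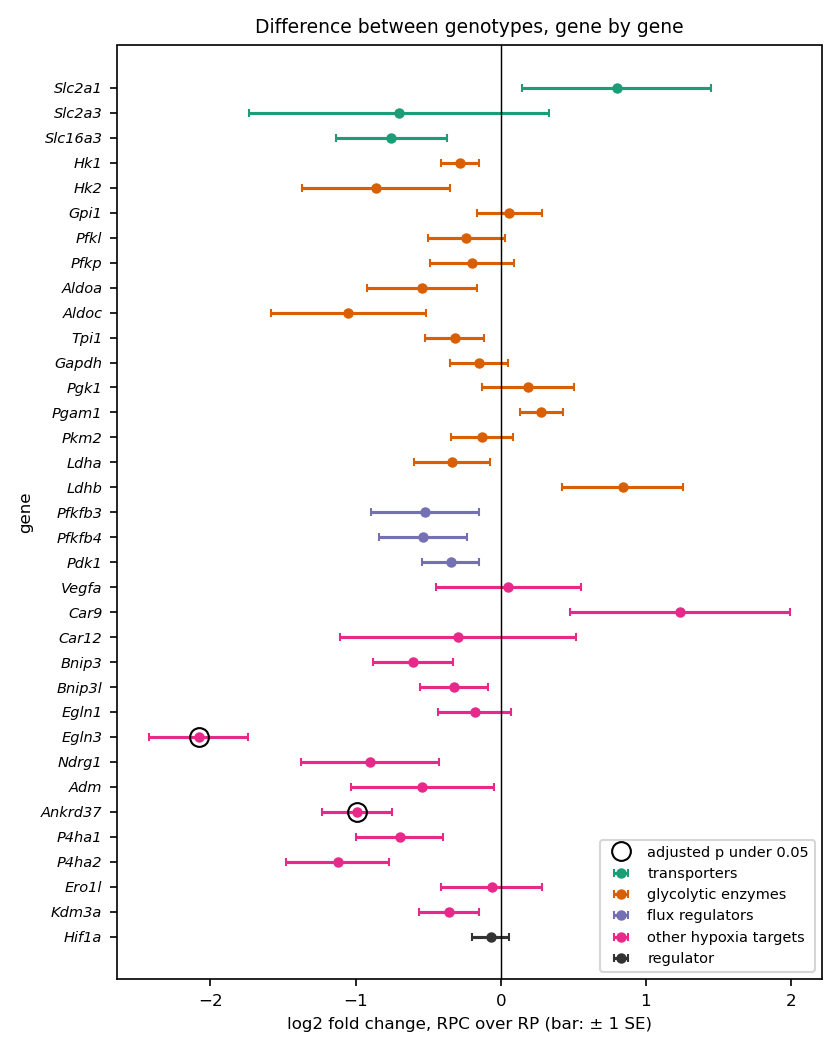
Log2 fold change of RPC over RP for each of the 35 genes, with bars of ± 1 SE, coloured by role. Circles mark Egln3 and Ankrd37, which passed the adjusted threshold; 28 of the 35 points lie left of 0.

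Egln3 had 56.0, 38.0, 54.3, 28.8, 56.9, 21.0 and 62.1 CPM in RPC tumours 1 to 7, against 109, 135, 122, 332, 243, 305 and 95.2 CPM in RP tumours 1 to 7. Every RPC tumour was below every RP tumour, and RP tumours 4, 5 and 6 were the highest. The log2 fold change was -2.08 (SE 0.34, edgeR adjusted p = 0.0114). It was the only one of the 35 members whose genotypes did not overlap, where 0.635% of all tested genes were separated in that direction. The call held in all 14 fits that left out 1 library (highest adjusted p = 0.0347). Without RPC tumours 3, 5 and 6 the log2 fold change was -2.05 and the adjusted p 0.091, and in a model that also held the average non-tumour marker level it was -2.04 (adjusted p = 0.119). The size of the difference was thus about the same with and without the libraries low in non-tumour markers, while the call was lost.

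Ankrd37 had 23.9, 15.1, 17.8, 24.6, 16.9, 11.7 and 16.7 CPM in RPC tumours 1 to 7, against 40.6, 27.4, 47.3, 20.0, 42.2, 50.0 and 24.6 CPM in RP tumours 1 to 7. RPC tumours 1 and 4 lay above the lowest RP tumour, number 4, and the other 5 lay below all RP tumours. Its log2 fold change was -0.99 (SE 0.24, edgeR adjusted p = 0.0462), close to the threshold. Leaving out any 1 of RPC tumours 2, 3, 4, 5 and 6 or of RP tumours 1, 2, 5, 6 and 7 ended the call (adjusted p between 0.0524 and 0.0973), as did leaving out RPC tumours 3, 5 and 6 together (-0.84, adjusted p = 0.265). It ended too in the model with the non-tumour marker level (-0.95, adjusted p = 0.249), with limma-voom (adjusted p = 0.0672) and with no filter on low counts (adjusted p = 0.0512). In the GENCODE annotation an exon of Ankrd37 overlaps exons of Ufsp2 and Lrp2bp on the other strand, and the sources used here do not say whether counting used strand. For Ufsp2, a protease for the UFM1 modifier, the log2 fold change was 0.25 (SE 0.21, edgeR adjusted p = 0.522). Lrp2bp averaged 0.838 ± 0.548 CPM in RPC and 3.23 ± 1.45 CPM in RP (SD, n = 7 each), or -1.94 on the log2 scale (edgeR adjusted p = 0.0575).

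**Figure D2:**
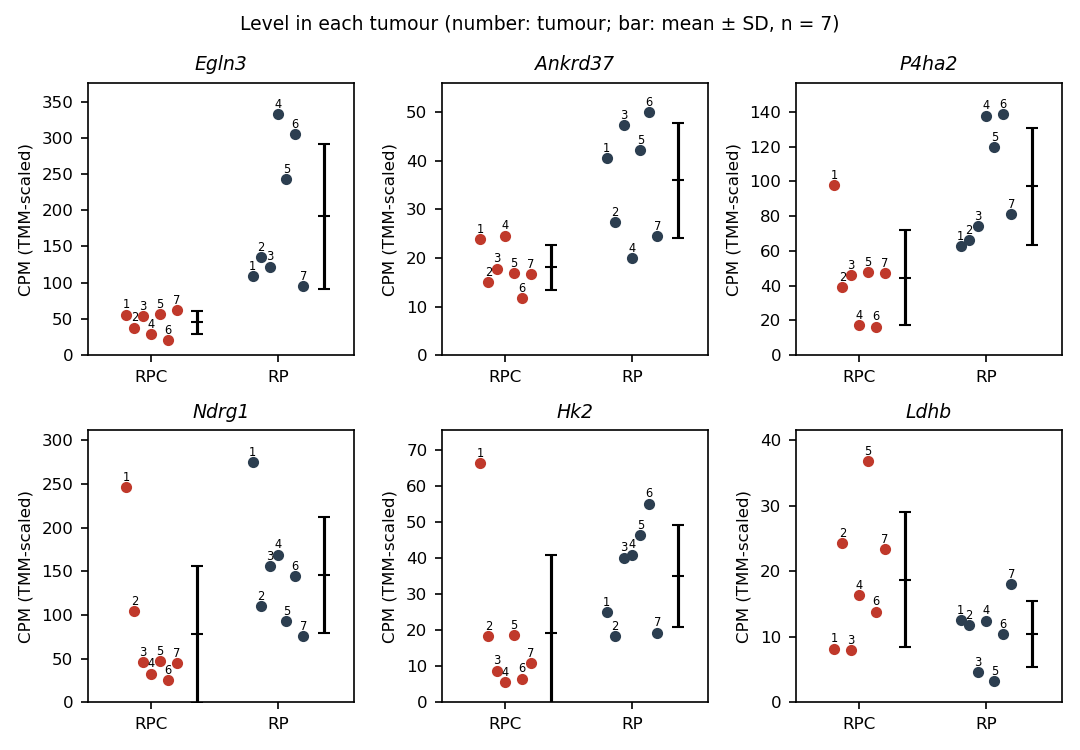
Level of 6 genes in CPM for each tumour, RPC left and RP right, with tumour numbers beside the points and the mean ± SD (n = 7) as bars, which end at 0 where the SD reaches lower. Egln3 separates the genotypes, and RPC tumour 1 lies far above the other RPC tumours for P4ha2, Ndrg1 and Hk2.

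The promoters of Egln3 and Ankrd37 are shown because both genes were called lower. Those of Pgk1 and Ldha are shown because these glycolytic genes are textbook Hif1a targets that did not pass the test. Each is the window from 250 bases before to 50 after the start in RefSeq, build GRCm38.p6, with ACGTG and GCGTG on either strand in capitals.
Egln3, chr12:54203825-54204124, minus strand: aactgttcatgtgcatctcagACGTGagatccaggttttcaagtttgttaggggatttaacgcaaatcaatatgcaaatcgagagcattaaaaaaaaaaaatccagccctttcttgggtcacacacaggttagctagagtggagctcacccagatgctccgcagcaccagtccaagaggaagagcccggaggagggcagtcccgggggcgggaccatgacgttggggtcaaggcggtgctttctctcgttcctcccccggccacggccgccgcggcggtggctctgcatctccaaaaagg
Ankrd37, chr8:45999801-46000100, minus strand: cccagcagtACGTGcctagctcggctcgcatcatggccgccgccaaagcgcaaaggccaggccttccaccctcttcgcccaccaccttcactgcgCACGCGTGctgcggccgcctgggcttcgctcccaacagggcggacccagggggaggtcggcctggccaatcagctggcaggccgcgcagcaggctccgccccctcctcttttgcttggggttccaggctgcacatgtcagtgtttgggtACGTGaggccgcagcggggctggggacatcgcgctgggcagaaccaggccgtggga
Pgk1, chrX:106186850-106187149, plus strand: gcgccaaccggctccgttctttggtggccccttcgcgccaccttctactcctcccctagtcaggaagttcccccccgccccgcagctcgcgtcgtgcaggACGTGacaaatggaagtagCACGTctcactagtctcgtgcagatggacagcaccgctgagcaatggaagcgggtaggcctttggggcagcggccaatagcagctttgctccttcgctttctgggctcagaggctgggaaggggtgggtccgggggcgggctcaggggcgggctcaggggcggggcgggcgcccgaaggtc
Ldha, chr7:46845554-46845853, plus strand: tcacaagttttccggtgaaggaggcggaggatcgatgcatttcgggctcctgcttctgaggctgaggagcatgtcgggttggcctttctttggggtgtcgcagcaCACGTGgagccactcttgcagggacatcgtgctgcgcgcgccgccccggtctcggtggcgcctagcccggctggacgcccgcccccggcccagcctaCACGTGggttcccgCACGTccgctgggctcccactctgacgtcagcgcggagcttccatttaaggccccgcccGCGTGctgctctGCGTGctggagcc
The Egln3 window holds 1 ACGTG and 0 GCGTG, and the Ankrd37 window 2 of each, of which a pair of GCGTG cores on opposite strands overlap. The Pgk1 window holds 2 ACGTG, and the Ldha window at its first listed start 5 ACGTG and 2 GCGTG, where the palindrome CACGTG counts on both strands. Of the 35 members, 32 matched the RefSeq table, with 43 start windows among them. Either core was found in 33 of these 43 (76.7%), against 43.8% of all 32851 windows, and ACGTG alone in 55.8% against 19.6%. The windows compared were not matched for base content, and many members are listed because they are known hypoxia targets. A match is a description of the letters, and binding was not measured.

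Among the other hypoxia targets, 12 of 14 had negative fold changes, with a median of -0.45 and 2 called lower. Without the called genes Egln3 and Ankrd37, 10 of 12 were negative, with a median of -0.34. P4ha2, a collagen prolyl hydroxylase subunit, had a lowest, median and highest level of 16.4, 46.1 and 98.1 CPM in RPC, against 62.7, 81.4 and 139 CPM in RP. RPC tumour 1, at 98.1 CPM, was alone within the RP range. The log2 fold change of P4ha2 was -1.12 (SE 0.36, edgeR adjusted p = 0.0998). Its paralog P4ha1 had 42.9, 79.7 and 135 CPM in RPC, against 59.0, 152 and 191 CPM in RP, with overlapping ranges (-0.69, SE 0.30, edgeR adjusted p = 0.2).

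Bnip3, a mitophagy receptor, had 61.6, 175 and 306 CPM in RPC, against 215, 266 and 329 CPM in RP, and 5 of 7 RPC tumours were below every RP tumour (-0.60, edgeR adjusted p = 0.226). Ndrg1, a stress-response gene, had 25.7, 46.2 and 246 CPM in RPC, against 75.5, 145 and 275 CPM in RP (-0.90, edgeR adjusted p = 0.289). For Ndrg1 the highest RPC value was again that of tumour 1. Without RPC tumour 1 the members called were 5, all lower: Egln3, Ankrd37, P4ha2 (-1.44, edgeR adjusted p = 0.0352), Ndrg1 (-1.54, 0.0428) and the hexokinase gene Hk2 (-1.61, 0.0414). In that fit 0.842% of all tested genes were called lower. Leaving out any other single library gave at most 2 members.

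Vegfa, the endothelial growth factor, had 30.8, 191 and 455 CPM in RPC, against 98.3, 176 and 382 CPM in RP. Its log2 fold change was 0.05 (SE 0.50, edgeR adjusted p = 0.963), and RPC held both the lowest tumours (4 and 6) and the highest (1). Car9, a carbonic anhydrase often used as a hypoxia marker, was low in all libraries, at 0.358, 1.72 and 10.7 CPM in RPC, against 0.217, 1.09 and 2.80 CPM in RP. Only RPC tumours 1 and 3, at 10.7 and 6.50 CPM, exceeded the RP range (log2 fold change 1.23, SE 0.76, edgeR adjusted p = 0.366). The carbonic anhydrase Car12, the peptide hormone gene Adm, the mitophagy receptor Bnip3l, the prolyl hydroxylase Egln1, the oxidoreductase Ero1l and the histone demethylase Kdm3a had log2 fold changes from -0.54 for Adm to -0.06 for Ero1l. None of these 6 passed the threshold, and their ranges overlapped.

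The 3 Egln paralogs can be set beside each other per length of transcript. Egln3 made up 18.7% ± 5.71 of their summed CPM per kilobase in RPC and 44.1% ± 14.6 in RP (SD, n = 7 each), with a highest RPC share of 26.5% and a lowest RP share of 27.0%. Egln1, the main oxygen-sensing hydroxylase, was at 133 ± 53.1 CPM in RPC and 150.2 ± 46.1 CPM in RP (log2 fold change -0.18, edgeR adjusted p = 0.704). Egln2 was at 76.9 ± 13.5 CPM in RPC and 89.0 ± 15.9 CPM in RP (-0.21, edgeR adjusted p = 0.416; SD, n = 7 each). The share is set by the same Egln3 counts that gave its fold change and adds no evidence of its own.

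Hif1a RNA had 148, 187 and 213 CPM in RPC, against 152, 190.1 and 234 CPM in RP. The ranges almost coincided (log2 fold change -0.07, SE 0.13, edgeR adjusted p = 0.774). Hif1a is controlled mainly at the protein level, which was not measured. Among 19 other genes of the HIF pathway, 0 were called by edgeR. At an unadjusted p under 0.05, 3 were higher and 1 lower, a share close to the 21.3% of all genes. The 3 with the smallest p were Hif1an, the asparaginyl hydroxylase that blocks binding of Hif1a to Crebbp and Ep300, Os9, a lectin of endoplasmic reticulum quality control, and Tceb1, the elongin C partner of Vhl. Hif1an was at 84.9 ± 12.3 CPM in RPC and 57.6 ± 11.9 CPM in RP (SD, n = 7 each). That difference, 0.56 on the log2 scale with an SE of 0.15, missed the threshold in edgeR (adjusted p = 0.0643) and passed it in DESeq2 (adjusted p = 0.0136), which called 9.20% of the genes it tested. Hif1an lies on chromosome 19, where the median log2 fold change of 502 tested genes was 0.46 and 75.9% were positive; the part of that shift in the Hif1an value was not tested. Os9 and Tceb1 had log2 fold changes of -0.38 and 0.51 (edgeR adjusted p = 0.128 and 0.207).

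Glycolytic enzymes showed no call in either direction in edgeR or DESeq2. Of the 14, 10 had negative and 4 positive fold changes, from -1.05 for Aldoc to 0.84 for Ldhb, with a median of -0.22, and 1 was lower at an unadjusted p under 0.05. That gene was Hk1, the broadly expressed hexokinase, with 135, 154 and 229 CPM in RPC, against 179.7, 189.8 and 245 CPM in RP. For Hk1, 6 of 7 RPC tumours were below every RP tumour and RPC tumour 5 was the exception (-0.28, SE 0.13, edgeR adjusted p = 0.231). Hk2, the hypoxia-inducible hexokinase, had 5.56, 10.9 and 66.4 CPM in RPC, against 18.5, 40.2 and 55.1 CPM in RP. RPC tumour 1 was the highest of all 14 for Hk2, and 5 RPC tumours were below every RP tumour (-0.86, SE 0.51, edgeR adjusted p = 0.35). Per length, Hk2 was a minor share of both hexokinases together, at 7.21% ± 7.01 in RPC and 11.2% ± 4.57 in RP (SD, n = 7 each).

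Pgk1, the first ATP-yielding enzyme of the pathway, had 318, 536 and 1602 CPM in RPC, against 471, 603 and 839 CPM in RP. Its RPC values spread to both sides of the RP range (0.19, SE 0.32, edgeR adjusted p = 0.758). Ldha, the lactate dehydrogenase subunit that favours lactate formation, had 511, 850.2 and 1638 CPM in RPC, against 789.6, 1082 and 1440.3 CPM in RP (-0.33, SE 0.26, edgeR adjusted p = 0.481). Ldhb, the subunit that favours pyruvate, was far lower, at 7.96, 16.4 and 36.8 CPM in RPC, against 3.27, 11.8 and 18.0 CPM in RP (0.84, SE 0.42, edgeR adjusted p = 0.262). For Ldhb, RPC tumours 2, 5 and 7 exceeded every RP tumour. Per length, Ldhb made up 3.17% ± 1.64 of both subunits in RPC and 1.39% ± 0.916 in RP (SD, n = 7 each), with overlapping ranges.

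Aldoc, the brain-type aldolase, had 11.6, 26.1 and 112 CPM in RPC, against 28.5, 67.1 and 175 CPM in RP (edgeR adjusted p = 0.274). Pgam1, the phosphoglycerate mutase, had 308, 341 and 548 CPM in RPC, against 233, 327 and 341 CPM in RP, so that RPC tumours 2, 3 and 5 lay above the RP range (0.28, SE 0.15, edgeR adjusted p = 0.29). Pgam1 also lies on chromosome 19, with the median of 0.46 given above, and the part of that shift in its value was not tested. The other enzymes, Gpi1, Pfkl, Pfkp, Aldoa, Tpi1, Gapdh and Pkm2, had log2 fold changes between -0.54 for Aldoa and 0.06 for Gpi1, with overlapping ranges. Counts under the symbol Pkm2 are for the whole gene, Pkm in RefSeq, and do not tell its splice forms apart. Pkm2, the pyruvate kinase, and Gapdh were the most abundant members per length, at 734 ± 220.0 and 659.6 ± 192 CPM per kilobase in RPC, and 804 ± 194 and 731 ± 146 CPM per kilobase in RP (SD, n = 7 each). Several of these enzymes have processed pseudogenes, and reads shared with such copies cannot be assigned with certainty, so the levels of these genes are uncertain.

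Of the 3 transporters, the lactate exporter Slc16a3 had 51.2, 82.0 and 266 CPM in RPC, against 100.3, 187 and 351 CPM in RP, with 5 of 7 RPC tumours below every RP tumour (-0.75, SE 0.38, edgeR adjusted p = 0.271). The neuronal-type glucose transporter Slc2a3 was scarce, at 0, 0.597 and 13.0 CPM in RPC, against 0.593, 2.81 and 11.8 CPM in RP (-0.70, SE 1.03, edgeR adjusted p = 0.717). Its fold change rested on single libraries, at -2.27 without RPC tumour 1 (edgeR adjusted p = 0.203) and -0.22 without RP tumour 1 (edgeR adjusted p = 0.922). RPC tumour 3 had 0 Slc2a3 counts, which allows a level of up to 0.298 CPM by counting error alone.

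Slc2a1, the main glucose transporter, had 34.2, 94.4 and 987 CPM in RPC, against 84.4, 134 and 149 CPM in RP. The log2 fold change fitted by edgeR was 0.80 (SE 0.65, edgeR adjusted p = 0.496), although the RPC median was below the RP median. With all libraries kept, limma-voom gave -0.20. In edgeR, RPC tumour 2 decided the sign. Without it the log2 fold change was -0.50 (edgeR adjusted p = 0.399), and RPC tumours 3, 4 and 6 were below every RP tumour. In RPC tumour 2, Slc2a1 stood 3.02 log2 units above the RP mean, and Ebna1bp2, the tested gene just before it on chromosome 4, was at -0.80. The next genes, Zfp691, Ermap, Ccdc23 and AU022252, were at 3.70, 4.42, 4.26 and 4.11 there. None of these 4 neighbours exceeded 1.61 in any other RPC tumour. Further along, the neighbours Scmh1, Ctps and Cited4, named after their values were seen, were at 3.70, 4.54 and 4.58 in RPC tumour 1. In RPC tumour 2, Scmh1 and Ctps were at 2.57 and 3.96 and Cited4 at -2.94.

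**Figure D3:**
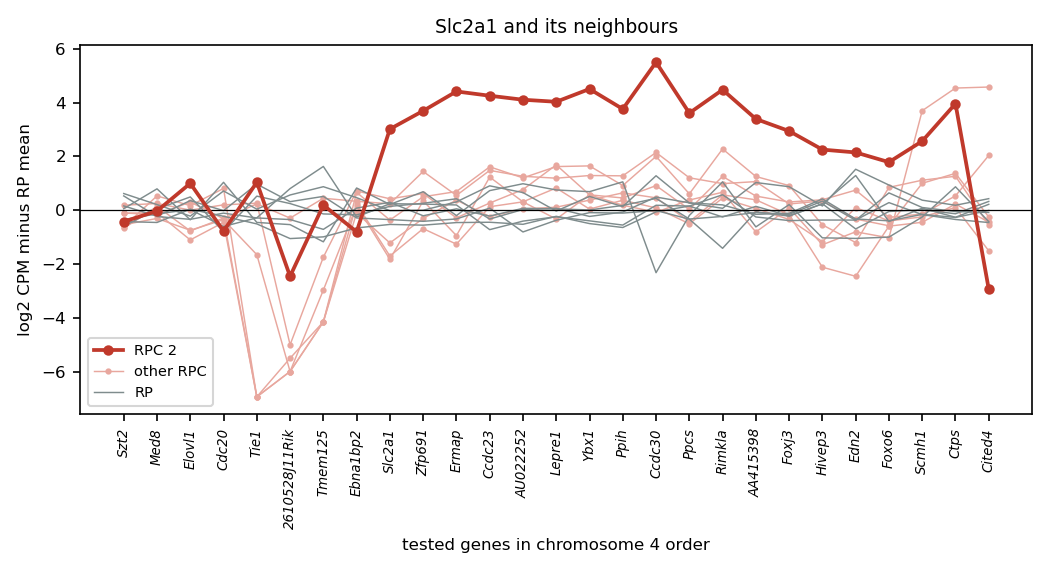
Log2 CPM minus the RP mean for Slc2a1 and tested genes around it in chromosome 4 order, with RPC tumour 2 as the thick line, the other RPC tumours in pale red and RP tumours in grey. In RPC tumour 2 levels step up at Slc2a1 (3.02) and stay above the RP mean up to Ctps (3.96). They are lowest within that run at Foxo6 (1.79), and Cited4, the last gene shown, is at -2.94.

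The 3 regulators of flux all had negative fold changes without a call. Pfkfb3 and Pfkfb4, which set the level of the glycolytic activator fructose 2,6-bisphosphate, had medians of 43.4 and 29.6 CPM in RPC and 66.6 and 32.6 CPM in RP. Pfkfb3 ranged from 18.8 to 94.0 CPM in RPC and from 35.2 to 110.3 CPM in RP (-0.52, SE 0.37, edgeR adjusted p = 0.436). Pfkfb4 ranged from 14.6 to 44.1 CPM in RPC and from 16.2 to 55.1 CPM in RP (-0.53, SE 0.30, edgeR adjusted p = 0.323). Pdk1, a kinase that shuts pyruvate out of the mitochondrial acetyl-CoA route, had 56.4, 92.3 and 141 CPM in RPC, against 93.6, 117 and 142 CPM in RP, with 5 RPC tumours below every RP tumour (-0.34, SE 0.20, edgeR adjusted p = 0.332).

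The members also differed between tumours of 1 genotype. RPC tumour 1 was the highest of all 14 libraries for 6 of 14 enzymes and 3 of 14 other targets. RPC tumour 6 was the lowest for 5 enzymes and 8 targets, and it was below the gene's median over libraries for 33 of 35 members. RPC tumour 4 was below the median for 32 members, RPC tumour 7 for 27, RPC tumours 2 and 3 for 23 each, RPC tumour 5 for 12 and RPC tumour 1 for 7, against 7 to 17 in RP tumours. The mean log2 deviation of 33 non-tumour markers was -4.51 in RPC tumour 6, -4.26 in RPC tumour 3 and -4.15 in RPC tumour 5. In RPC tumours 1, 2, 4 and 7 it was 0.53, 2.31, -0.14 and 1.49, against 0.22 to 2.56 in RP tumours. The part of non-tumour RNA in the members' levels was not tested library by library. The SD of log2 CPM was greater among RPC than among RP tumours for 29 of the 35 members and 13 of the 14 enzymes, where this held for 52.3% of all tested genes. The count of members was between 26 and 30 with any 1 library left out, and 26 without RPC tumours 3, 5 and 6 (37.2% of all genes). The median SD over members was 0.70 in RPC and 0.46 in RP.

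**Figure D4:**
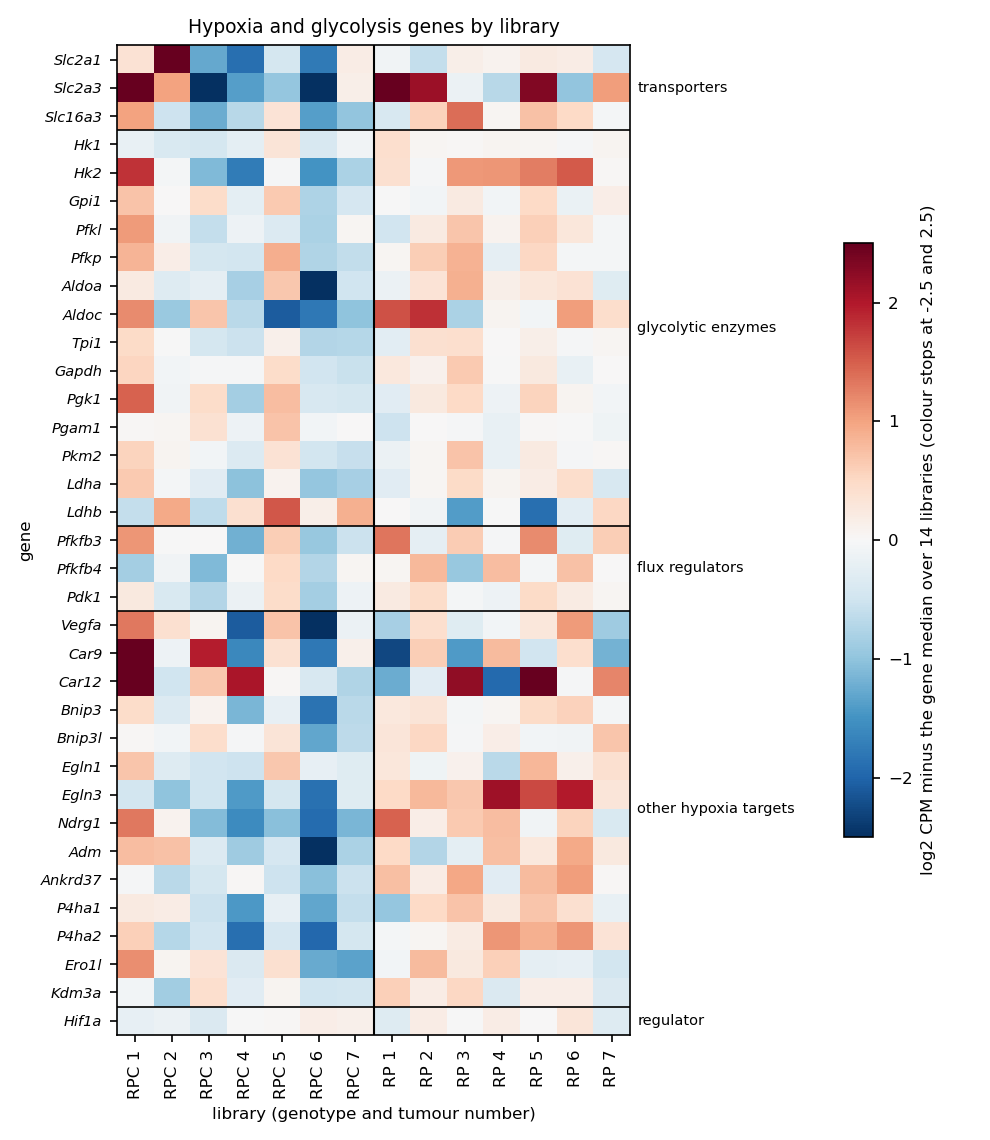
Log2 CPM minus each gene's median over 14 libraries for the 35 members, RPC tumours left of RP tumours and genes grouped by role. RPC tumour 1 is mostly red, RPC tumours 4, 6 and 7 are mostly blue, and the RP columns vary less.

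Enzymes were set against the other hypoxia targets library by library. For each library the median deviation from the gene's median was taken over the 14 enzymes and over the 14 targets. The enzyme score averaged -0.14 ± 0.49 in RPC and 0.10 ± 0.19 in RP, and the target score -0.42 ± 0.71 in RPC and 0.26 ± 0.16 in RP (log2 units, SD, n = 7 each). The enzyme score minus the target score averaged 0.28 ± 0.36 in RPC and -0.16 ± 0.25 in RP, a difference between genotypes of 0.44. It ranged from -0.12 to 0.80 in RPC and from -0.50 to 0.25 in RP, so the genotypes overlapped, and RPC tumours 4, 5 and 6 lay above every RP tumour. The RPC target scores of all tumours but number 1 were below every RP target score. No test was made of these scores, since their genes were chosen with results of these data known.

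**Figure D5:**
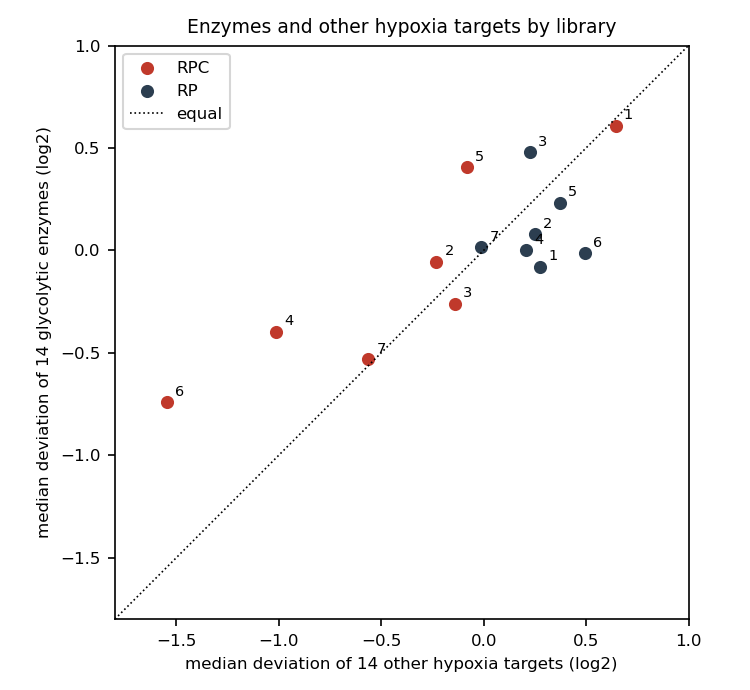
Median log2 deviation of the 14 glycolytic enzymes against that of the 14 other hypoxia targets for each tumour, with tumour numbers and the line of equality. RP tumours lie between -0.08 and 0.48 for enzymes, and RPC tumours spread from -0.74 to 0.61.

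Other genes of the pathway gave 1 further call. Of 25 other hypoxia-induced genes, Bhlhe41, a repressor of the circadian and hypoxic response, was the 1 lower gene and 0 were higher, with a median log2 fold change of -0.20 (1.12% of all genes were called lower). Bhlhe41 had 29.7, 38.3 and 60.6 CPM in RPC, against 71.9, 85.9 and 105 CPM in RP. The genotypes did not overlap, as for 0.635% of all genes in that direction, and the log2 fold change was -1.07 (SE 0.17, edgeR adjusted p = 0.00899). That call held in all 14 fits that left out 1 library. It was lost without RPC tumours 3, 5 and 6 (-1.08, adjusted p = 0.091) and in the model with the non-tumour marker level (-1.07, adjusted p = 0.104), at nearly the same fold change. Its paralog Bhlhe40 was at 36.9 ± 20.7 CPM in RPC and 99.6 ± 54.3 CPM in RP (-1.43, edgeR adjusted p = 0.103). Wsb1, a ubiquitin ligase subunit, was at 252 ± 135 CPM in RPC and 139 ± 29.6 CPM in RP (0.85, edgeR adjusted p = 0.102; SD, n = 7 each). Both Bhlhe40 and Wsb1 passed in DESeq2 (adjusted p = 0.0312 and 0.0412). Among 34 other sugar metabolism genes, edgeR called 0, with 3 higher and 3 lower at an unadjusted p under 0.05, which 21.3% of all genes passed. Those with the smallest p, Fbp1, Pdhb and Pcx, passed in DESeq2 (adjusted p = 0.00325, 0.0215 and 0.0429), as did 9.20% of all genes tested there. Fbp1, a gluconeogenic phosphatase, was at 10.8 ± 5.41 CPM in RPC and 66.3 ± 53.6 CPM in RP (-2.61, edgeR adjusted p = 0.0667). Pdhb, of the pyruvate dehydrogenase complex, and Pcx, pyruvate carboxylase, had log2 fold changes of 0.67 and 0.97 (edgeR adjusted p = 0.0714 and 0.104). Pcx is on chromosome 19, with its median of 0.46, and the part of that shift in the Pcx value was not tested.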

How the data were processed

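RNA was isolated from primary tumours with TRIzol, selected with oligo dT and sequenced, per the labels' protocols, giving 14 libraries, 7 RPC and 7 RP. The authors deposited raw read counts per gene symbol, 1 file per library; bcl2fastq 1.8.2, TopHat2 2.0.12, HTSeq 0.6.1 and build mm9 are named in the submitters' processing notes. Which annotation was counted, and whether by strand, is not given in the sources used here. The 5 rows that name no gene were left out of library sizes: reads in no feature were 15.5 to 19.4% in RPC and 15.1 to 20.5% in RP of all counts, ambiguous reads 0.883 to 1.07% in RPC and 0.897 to 1.09% in RP, and reads not mapped uniquely 8.65 to 11.2% in RPC and 8.44 to 10.3% in RP.

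Counts were tested with edgeR 4.0.16 (R 4.3.3): TMM scaling, a filter on low counts (filterByExpr, minimum 10, total 15), quasi-likelihood F test of RPC over RP, and Benjamini-Hochberg adjustment over 14804 genes. SE is the log2 fold change divided by the square root of F. CPM values are TMM-scaled, with 2 as the prior count on the log2 scale. Levels between genes are CPM per kilobase of the APPRIS principal transcript in GENCODE M21. Counting limits cover counting error only. No library pair within a genotype agreed within sampling noise (42 pairs, lowest chi-square per degree of freedom 59.2). The script was tested on simulated data. DESeq2 1.42.0, limma 3.58.1 (voom), other scalings and filters, a replicate block, a term for the mean log2 CPM of 33 non-tumour markers, and fits without single libraries or RPC tumours 3, 5 and 6 were alternatives. Members passing the test, the 4 members of each role with the smallest p and a fixed set of central members were given with their values, and from each other pathway list those passing the test and up to 3 with the smallest p. The members and all lists were chosen with earlier results of these data known. Chromosome order came from RefSeq GRCm38.p6 by symbol.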

Additional observations from a re-analysis of the deposited data

Results flagged for a closer look

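Among 76 groups of 7 libraries tested for a single value far from the rest, 4 were found. Chance alone gives about 1 in 20 groups, so the count found was near the number that chance gives. Hk1 was high in RP tumour 1, at 245 CPM where the next RP tumour had 192 CPM, a gap of 0.787 of the group's range on the log2 scale. Pgam1 was low in RP tumour 1, at 233 CPM, with a gap of 0.606 of the range. In RPC tumour 6, Aldoa was low at 112 CPM and Adm at 0.358 CPM, with gaps of 0.585 and 0.569 of the range.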

How the results depend on the processing

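edgeR's quasi-likelihood test called 327 genes and 2 members. Over all genes, DESeq2 called 1595, limma-voom 503, the fit with a term for non-tumour markers 7 and the fit without RPC tumours 3, 5 and 6 only 11. Leaving out 1 library gave 51 (without RP tumour 6) to 898 genes (without RP tumour 3) and 1 to 5 members. Members called were 1 with no filter and 1 with limma-voom, both times without Ankrd37, 0 with the non-tumour term and 0 without RPC tumours 3, 5 and 6, with 5 and 6 members at an unadjusted p under 0.05 in the last 2 fits. DESeq2 called 3, adding P4ha2. The causes were not tested; the last fits also have fewer samples or more terms.

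Tumours with the same number in RPC and RP correlated at -0.054 to 0.32 in their deviations from the group means, above 0.1 in 3 of 7 pairs. In those 3 the shared number gave the highest correlation, in the other 4 it did not, and the labels give no shared origin, so the numbers were not taken to pair the samples. With a replicate block, 74 genes and 0 members were called, with 11 members at an unadjusted p under 0.05. In that fit Slc2a1 was at -0.36, Gpi1 -0.017, Pgk1 -0.016 and Vegfa -0.16, Egln3 at -1.98 (edgeR adjusted p = 0.07) and Ankrd37 at -0.96 (edgeR adjusted p = 0.11).

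None of the members whose sign turned in any fit passed the threshold in edgeR. With limma-voom the log2 fold changes were -0.20 for Slc2a1, -0.030 for Gpi1, -0.013 for Pgk1, -0.28 for Vegfa and 0.43 for Car12. With the non-tumour term they were 0.17 for Slc2a3 and -0.025 for Gpi1. Without RPC tumours 3, 5 and 6 they were 0.054 for Slc2a3, -0.0043 for Gpi1, 0.077 for Pfkl, 0.15 for Car12 and 0.0037 for Ero1l. Leaving out 1 library gave -0.84 to 0.44 for Car12, -0.36 to 0.081 for Ero1l, -0.056 to 0.17 for Gpi1, -0.13 to 0.32 for Pgk1, -0.25 to 0.00025 for Pkm2, -0.50 to 0.99 for Slc2a1 and -0.28 to 0.29 for Vegfa. The enzyme minus target difference kept its sign in every alternative run that computed it, from 0.30 to 0.52. Those runs were other scalings and filters, left-out libraries, another prior count and the mean over members. The difference was not computed with DESeq2, limma-voom, the replicate block or the non-tumour term. Depth limits Slc2a3, Car9, Car12 and Adm, whose levels fell under 1 CPM in some libraries.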
